A study of Mus musculus with 15 samples.

Results

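The response of the wild-type (WT) mouse colon to dextran sulfate sodium (DSS) was read from 5 of the 15 RNA sequencing libraries of the series. These were the 3 DSS libraries and the 2 untreated libraries whose labels give the WT genotype, which the protocol writes as TERT+/+. All came from colon of mice aged 8 to 12 weeks. The DSS mice drank 3% DSS for 4 days and then plain water for 4 days before the colon was harvested on day 8. The remaining 10 libraries carry a Tert allele labelled VAA or a Tert knockout (KO), again with 3 DSS and 2 untreated libraries each, and they entered the fit as groups of their own. Tert is the gene of telomerase's reverse transcriptase. Whether the libraries of a group came from separate mice is not stated in the labels. The 2 untreated WT libraries read as different sexes, as given below, so they were not from the same mouse. For the DSS libraries this stays unknown, and the p-values then refer only to the scatter of these samples, which may in part be technical. The labels also do not say which stretch of the colon was taken.

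DSS is a sulfated polysaccharide that damages the lining of the large intestine when mice drink it. Where the single layer of epithelial cells is lost, bacteria of the gut lumen reach the tissue, resident macrophages and epithelial cells release cytokines and chemokines, and neutrophils, monocytes and lymphocytes follow. Epithelial cells at the wound edge then take on a flattened, fetal-like state and spread over the gap, while mature colonocytes and goblet cells are replaced from the crypts. The samples therefore hold epithelium, leukocytes, stroma and muscle in one RNA pool, and a lower level from fewer cells of a type and a lower level from less RNA per cell cannot be told apart.

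The WT groups were compared within a fit of all 15 libraries. Of 17477 genes tested, 4642 were called at an adjusted p under 0.05, which is 26.6% of them. Here 2466 genes were higher after DSS (14.1% of those tested) and 2176 were lower (12.5%). The counts of called genes in each list below are to be read beside these shares. Adjusted p-values come from the quasi-likelihood test of edgeR, adjusted after Benjamini and Hochberg over the 17477 genes, fold changes are log2 of DSS over untreated, and ± gives the standard error of the fit. The genes called higher had a median log2 fold change of 0.90, and those called lower a median of -1.10, against -0.01 over the genes tested. A change of at least 4-fold was seen in 431 genes called higher and 361 called lower, and a change of at least 64-fold in 53 and 12. Genes called higher took 22.7% to 24.4% of the counts of the DSS libraries and 13.1% to 13.5% of those of the untreated libraries. Genes called lower took 8.18% to 10% after DSS and 19.5% to 19.9% in untreated colon. Both sets were chosen from these same libraries, so the direction of the shares was fixed in advance and only their size is described. In a principal component analysis of the 5 libraries the first component held 73.3% of the variance, with the DSS libraries at 51, 57.9 and 36.2 and the untreated libraries at -77.4 and -67.7.

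**Figure D1:**
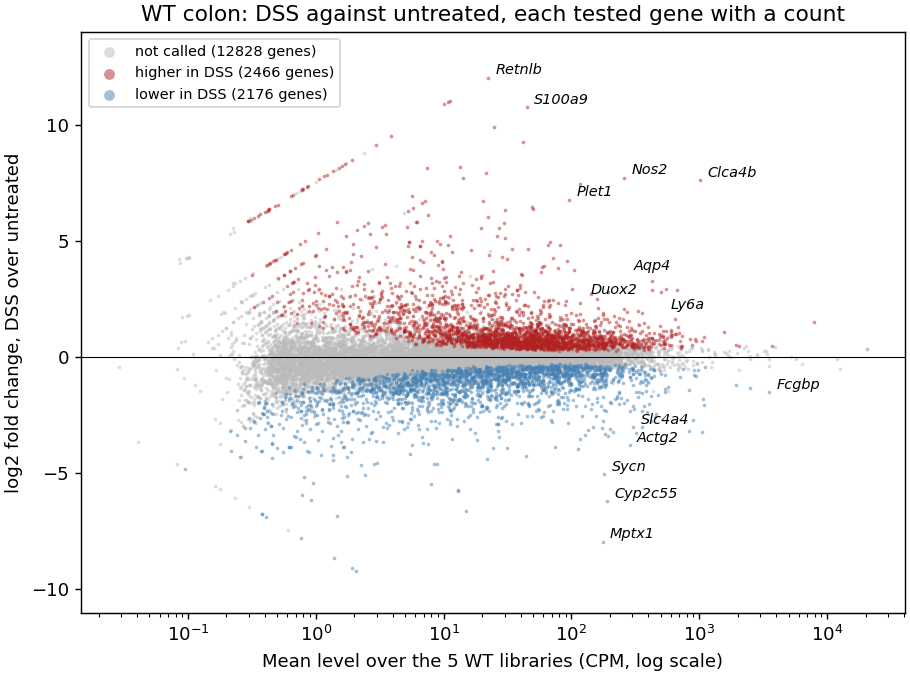
Mean level over the 5 WT libraries (CPM, log axis) against the log2 fold change of DSS over untreated for each tested gene with a count in them; red points are the 2466 genes called higher, blue points the 2176 called lower and grey points the genes not called. Red and blue points reach further from 0 than the grey ones at high levels, and the diagonal rows at the left are genes with a few counts in 1 group and none in the other.

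Depth and labels were similar between the groups apart from one point. The DSS libraries held 13.07 to 16.42 M counts (M is mega) and the untreated ones 14.16 and 14.19 M. Ddx3y, a gene of the Y chromosome, held 7 to 11 counts in the DSS libraries, 20 in untreated replicate 1 and 914 in untreated replicate 2, so 1 of the 2 untreated libraries read as male and the other 4 as female. Without untreated replicate 1 the test called 1958 genes, without untreated replicate 2 it called 2176, and without DSS replicate 2 it called 2842. With sex as a covariate it called 3758. Of the epithelial markers of the labelled tissue, Krt8, Epcam and Lgals4 were high in each library and did not pass the test. Krt8, a keratin of simple epithelium, was at 2780 to 2970 CPM after DSS and 2610 and 2900 CPM in untreated colon, where CPM is the count per M of the scaled library. Cdx2 was scarcer, at 22.2, 40.2 and 36.3 CPM after DSS and 11.8 and 14.3 CPM in untreated colon (edgeR adjusted p = 0.089). Slc26a3 was lower after DSS, with its values given below.

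The genes with the largest called increases at a mean log2 CPM of at least 2 included secreted proteins of phagocytes and genes of epithelium. Clca4b, which belongs to the calcium-activated chloride channel accessory family, was the most abundant of them, at 2100, 1380 and 1570 CPM in the DSS libraries and 10.1 and 7.06 CPM in the untreated ones. Its log2 fold change was 7.62 ± 0.32 (edgeR adjusted p = 4e-08). Plet1, which marks epithelium that is closing a wound, was at 142, 238 and 97.3 CPM after DSS and 1.5 and 1.35 CPM without it. Lrg1, a secreted glycoprotein of the acute phase, was at 238, 192 and 154 CPM against 1.30 and 0.874 CPM. Plet1 and Lrg1 were thus scarce in untreated colon, whereas Clca4b was measured there at a higher level. Lrg1 had a log2 fold change of 7.48 ± 0.62 (edgeR adjusted p = 9.9e-06), and Plet1 had 6.79 ± 0.61 (edgeR adjusted p = 1.8e-05).

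The largest called decreases were of genes that untreated colon held in quantity. Cpm, which encodes the membrane enzyme carboxypeptidase M, was at 16.3, 17.5 and 15.9 CPM after DSS and 253 and 264 CPM in untreated colon, a log2 fold change of -3.97 ± 0.39 (edgeR adjusted p = 3.6e-05). Sycn, known as a zymogen granule protein, was at 20.9, 6.74 and 11.8 CPM after DSS against 452 and 416 CPM. In both genes the highest DSS library lay far under the lower untreated one. The ranking took only genes whose groups did not overlap, as 62.9% of the genes tested had. Klb, the co-receptor for endocrine fibroblast growth factors, was at 1.90, 1.46 and 3.24 CPM after DSS and 23.7 and 27.6 CPM without it (log2 fold change -3.52 ± 0.31, edgeR adjusted p = 1.8e-05). Edn1, which encodes the vasoconstrictor endothelin-1, was at 3.72, 4.37 and 6.19 CPM against 80.6 and 62.4 CPM (log2 fold change -3.90 ± 0.40, edgeR adjusted p = 4.5e-05). Slc30a10, a manganese exporter, lay under the level limit set for this ranking and was singled out after its values were seen. It was at 0.364, 0.46 and 0.295 CPM after DSS and 24.6 and 49.2 CPM in untreated colon, a log2 fold change of -6.62 ± 0.45 (edgeR adjusted p = 3.1e-06).

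**Figure D2:**
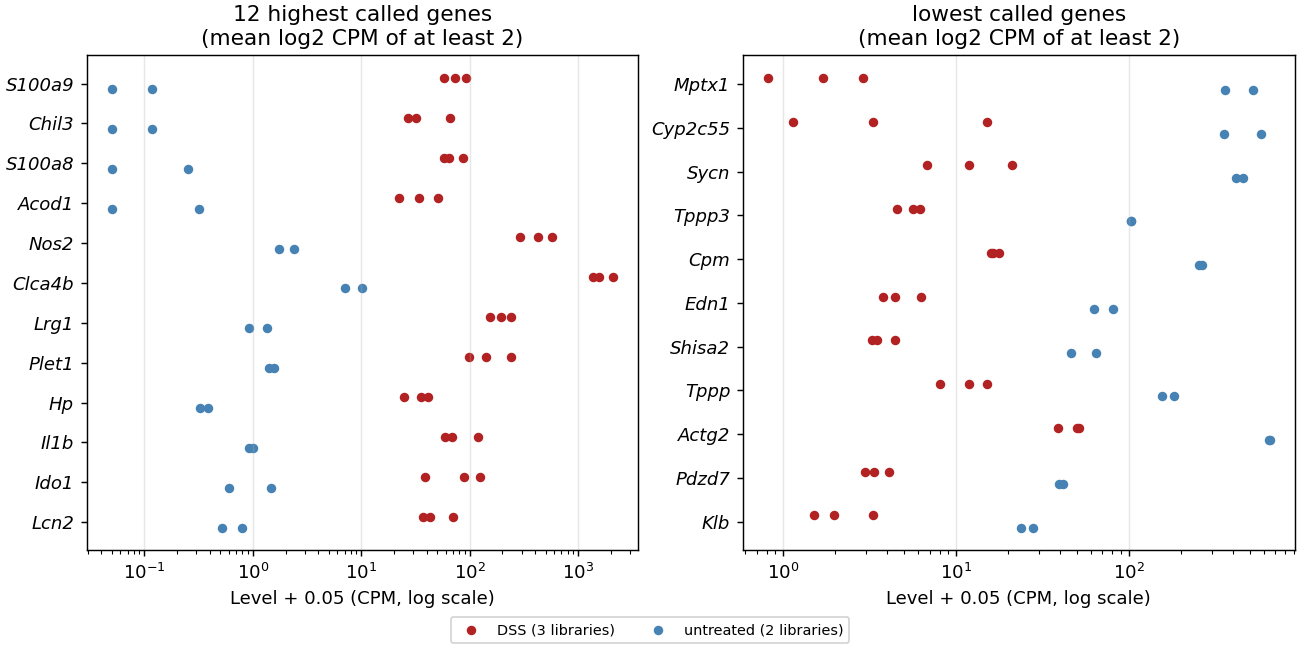
Level of the 12 highest called genes and of 11 of the lowest, at a mean log2 CPM of at least 2, in each WT library (CPM plus 0.05, log axis); red points are the 3 DSS libraries and blue points the 2 untreated ones. The rule that chose these genes required groups that do not overlap, as 62.9% of the genes tested had; Clca4b reached 2100 CPM after DSS and Mptx1 516 CPM in untreated colon.

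Leukocyte genes were higher after DSS for several lineages, but not for each. Of 23 tested genes of monocytes and macrophages, 13 were called higher and 1 lower, with a median log2 fold change of 1.78. Fcgr4, an activating Fc receptor of monocytes and neutrophils, was at 17.2, 19.2 and 10.4 CPM in the DSS libraries and 1.09 and 1.14 CPM in the untreated ones (log2 fold change 3.79 ± 0.43, edgeR adjusted p = 7.7e-05). Cd14, the co-receptor that hands lipopolysaccharide to Toll-like receptor 4, was at 79.9, 64.3 and 62.0 CPM against 19.9 and 15.2 CPM. The scavenger receptor gene Marco held 370 counts after DSS against 3, a ratio of 83.2 with an exact 95% counting interval of 28.3 to 405. The 1 macrophage gene called lower was Mrc1, the mannose receptor of resident macrophages, at 20.0, 29.2 and 22.9 CPM after DSS and 49.4 and 42.0 CPM in the untreated libraries, with a log2 fold change of -0.93 ± 0.29 (edgeR adjusted p = 0.03). That call was lost without either untreated library (adjusted p = 0.18 without replicate 1 and 0.081 without replicate 2) and without DSS replicate 1 or 3 (0.098 and 0.073). Of 11 tested dendritic cell genes, 0 were called higher and 1 lower; it was Cd209a, with 3 counts after DSS and 30 in untreated colon, and its adjusted p was 0.061 without untreated replicate 1.

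Of 18 tested neutrophil genes, 14 were higher and 0 lower. Retnlg, a resistin-like protein of neutrophils, held 986 counts after DSS against 2 in untreated colon, a ratio of 333 with a counting interval of 91.8 to 2750. The receptor gene Csf3r, through which granulocyte colony-stimulating factor acts, was at 24.8, 19.2 and 21.3 CPM after DSS and 2.12 and 1.28 CPM in untreated colon (log2 fold change 3.67 ± 0.30, edgeR adjusted p = 8.6e-06). The secondary granule genes Ltf and Ngp were called higher too, Ltf with 15.2, 19.8 and 8.55 CPM against 0.342 and 0.538 CPM. Other genes used to recognise neutrophils did not pass the test. Mpo, the myeloperoxidase of primary granules, was at 0.729, 0.766 and 0.826 CPM after DSS and 0.957 and 1.01 CPM in untreated colon (log2 fold change -0.34 ± 0.58, edgeR adjusted p = 0.7). Cxcr2, the receptor for neutrophil-attracting chemokines, was at 31.8, 27.0 and 30.5 CPM against 26.4 and 26.2 CPM (adjusted p = 0.58), and Ly6g was at 108, 126 and 110 CPM against 63.1 and 84.4 CPM (adjusted p = 0.32). Ltf, Ngp, Mpo, Cxcr2 and Ly6g were chosen after their values were seen.

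Among 22 tested genes of T and NK cells, 15 were higher and 0 lower, with a median log2 fold change of 2.83. Gzmb, the protease granzyme B of cytotoxic granules, held 181 counts after DSS against 2, a ratio of 61.1 with a counting interval of 16.7 to 508. Ctla4, an inhibitory receptor of activated and regulatory T cells, was at 3.06, 2.37 and 2.77 CPM after DSS and 0.0683 and 0.336 CPM in untreated colon (log2 fold change 3.70 ± 0.56, edgeR adjusted p = 0.00053). Levels were low: the summed level of the 22 genes was 48.7 to 69.0 CPM after DSS and 18 and 24.6 CPM in untreated colon. Without untreated replicate 1 there were 9 calls and without replicate 2 there were 10. Of 17 B and plasma cell genes, 2 were higher and 1 lower, the lower call being lost without either untreated library or without DSS replicate 1; Prdm1, a transcription factor of plasma cells and of other lineages, was at 32.7, 18 and 21.2 CPM against 4.78 and 5.31 CPM. Of 8 tested mast cell and eosinophil genes 3 were higher and 1 lower, and without DSS replicate 2 or 3 there were 2 and 1. The list summed to 61.6, 57.7 and 58.1 CPM after DSS and 71.3 and 53.5 CPM in untreated colon, so its summed level was not raised. Its member Hdc, the enzyme that makes histamine in mast cells and in some myeloid cells, was at 16.8, 14.4 and 17.5 CPM after DSS and 1.57 and 1.88 CPM in untreated colon (log2 fold change 3.23 ± 0.46, edgeR adjusted p = 0.00033). Ptprc, which encodes the leukocyte common antigen CD45, was at 157, 137 and 128 CPM after DSS and 26.4 and 49.4 CPM in untreated colon. Its adjusted p was 0.026, and 0.21 without untreated replicate 1, 0.063 without untreated replicate 2, 0.058 without DSS replicate 1 and 0.055 without DSS replicate 2.

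A narrow majority of the genes for cytokines and for chemokines that recruit and activate these cells was called higher. Of 17 tested genes of the interleukin-1, interleukin-6 and interleukin-17 families and related cytokines, 9 were higher and 0 lower, with a median log2 fold change of 2.05, and without untreated replicate 2 there were 5 calls. Osm, a cytokine of the interleukin-6 family that acts on stromal cells, was at 4.59, 4.44 and 5.37 CPM in the DSS libraries and 0.137 and 0.202 CPM in the untreated ones (log2 fold change 4.76 ± 0.54, edgeR adjusted p = 7.3e-05). Tnf was at 21.4, 7.66 and 9.79 CPM after DSS and 0.410 and 0.673 CPM in untreated colon. Tnf encodes tumour necrosis factor, an activator of NF-kB. Il1a, an alarm cytokine of damaged cells, was at 24.5, 12.3 and 6.96 CPM against 0.478 and 1.35 CPM, so its DSS libraries spread widely and still did not overlap the untreated ones; over the genes tested, 62.9% had groups that did not overlap. Ifng, which encodes interferon gamma, was singled out after its values were seen: it held 60 counts after DSS, mostly in replicate 1 (3.21, 0.919 and 0.236 CPM), and 0 in untreated colon. Its adjusted p was 0.047, and 0.075 to 0.19 without untreated replicate 1 or 2 or DSS replicate 1 or 2.

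Of 27 tested chemokine genes, 15 were higher and 2 lower, with a median log2 fold change of 1.55. Cxcl5, made by epithelium and stroma for neutrophils, was at 171, 112 and 63.9 CPM after DSS and 7.58 and 4.44 CPM in untreated colon (log2 fold change 4.26 ± 0.46, edgeR adjusted p = 5.4e-05). Cxcl2, another ligand of Cxcr2, held 1030 counts after DSS against 3, a ratio of 232 with a counting interval of 79.0 to 1130. Cxcl9, a chemokine for T cells that interferon gamma induces, was at 78.9, 37.7 and 12.8 CPM after DSS and 0.957 and 1.35 CPM in untreated colon. Cxcl9 spread widely over the DSS libraries, with replicate 1 highest and replicate 3 lowest. Its groups did not overlap, as in 62.9% of the genes tested. Cxcl9 was chosen after its values were seen. Cx3cl1, a membrane-bound ligand for resident mononuclear phagocytes, was lower, at 51.7, 45.9 and 53.3 CPM after DSS and 121 and 107 CPM in untreated colon (log2 fold change -1.18 ± 0.16, edgeR adjusted p = 0.00022). Without untreated replicate 1, 8 chemokines were called higher and 1 lower.

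Most of the genes that interferon gamma induces were called higher, and most of those read as type I interferon targets did not pass the test. Of 24 genes of the interferon gamma list, which holds the guanylate-binding proteins, immunity-related GTPases and related genes, 19 were higher and 0 lower, with a median log2 fold change of 2.61. Of 32 type I interferon stimulated genes, 4 were higher and 0 lower, with a median of 0.49. The count of 4 lay near the 14.1% called higher over all genes tested. Without untreated replicate 1, untreated replicate 2 or DSS replicate 1 the counts were 9, 11 and 14 for the first list and 1 each time for the second. The difference between the lists was not tested, and they share regulators. The level of the first list differed between the DSS libraries: its genes summed to 3010, 1540 and 1050 CPM in DSS replicates 1, 2 and 3 and to 358 and 354 CPM in the untreated libraries.

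Ido1, the interferon-induced enzyme that starts tryptophan breakdown, was at 124, 87.6 and 38.9 CPM after DSS and 0.547 and 1.41 CPM in untreated colon (log2 fold change 6.39 ± 0.59, edgeR adjusted p = 2e-05). Gbp5, a guanylate-binding protein that coats bacteria and their membranes in cells, was at 100, 54.8 and 35.8 CPM after DSS and 13.3 and 13.7 CPM in untreated colon (log2 fold change 2.23 ± 0.34, edgeR adjusted p = 0.00057). Socs1, the inhibitor of the Jak kinases that these interferons induce, was at 29.0, 13.3 and 6.66 CPM against 1.57 and 1.35 CPM. In each of the 3 genes replicate 1 was the highest DSS library and replicate 3 the lowest. Their groups did not overlap, as in 62.9% of the genes tested. Iigp1, an immunity-related GTPase chosen after its values were seen, was at 223, 70.4 and 42.0 CPM after DSS against 3.76 and 3.36 CPM. Of the 32 type I targets, 28 had a fold change above 0, as had 8585 of the 17477 genes tested. Ifit1 was at 23.9, 8.89 and 8.14 CPM after DSS and 12.8 and 8.54 CPM in untreated colon (adjusted p = 0.76), and Irf7 was at 47.3, 27.4 and 27.2 CPM against 52.8 and 41.6 CPM (adjusted p = 0.39). Ifit1 and Irf7 were chosen after their values were seen and do not stand for the list. Bst2, which tethers budding viruses to the cell, was the type I target with the smallest p, at 18.4, 16.7 and 8.37 CPM against 4.78 and 4.17 CPM (edgeR adjusted p = 0.0027). Many of these GTPase genes lie in clusters of near-identical copies, so that reads of one copy can be counted to another.

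The interferon-stimulated response element (ISRE), which the factors downstream of interferon receptors recognise, was looked for in the 250 bases before the start of each gene. Promoters are RefSeq's on GRCm38.p6, and 12092 of the tested genes had one. Its letters, taken as GAAA, any 2 bases and GAAA again on either strand, were found in 3.26% of these promoters, in 11.1% of the 305 promoters of genes called higher by 4-fold or more, and in 11 of the 13 matched genes of the interferon gamma list. For the type I list they were found in 11 of 23, and for the smooth muscle list, called lower, in 2 of 15. The gamma-activated site, TTCNNNGAA, was found in 7.4% of the 12092 promoters and in 7 of the 13. Below are 2 of these promoters, shown because Gbp5 and Socs1 were called higher with small p-values and are of different function. Letters run 5′ to 3′ on the strand of the gene, and the capitals mark the ISRE letters. In Gbp5 (chr3:142496684-142496933, plus strand) the match is on the opposite strand and begins 165 bases before the start. In Socs1 (chr16:10785537-10785786, minus strand) 2 matches overlap, beginning 83 and 77 bases before the start.
Gbp5: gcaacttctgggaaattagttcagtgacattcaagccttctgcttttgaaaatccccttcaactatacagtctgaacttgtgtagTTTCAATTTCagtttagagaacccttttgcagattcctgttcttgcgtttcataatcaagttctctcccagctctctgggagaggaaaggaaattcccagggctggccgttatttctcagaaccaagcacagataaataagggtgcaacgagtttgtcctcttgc
Socs1: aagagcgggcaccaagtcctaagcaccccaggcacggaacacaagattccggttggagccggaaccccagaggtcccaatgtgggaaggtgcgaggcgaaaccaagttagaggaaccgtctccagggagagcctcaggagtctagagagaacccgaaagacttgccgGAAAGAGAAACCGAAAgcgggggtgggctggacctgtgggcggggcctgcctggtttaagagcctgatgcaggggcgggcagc
A match of letters is a description and does not show that a factor is bound there.

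Most antigen presentation genes of class I were higher, and most of class II did not pass the test. Of 21 genes of class I presentation and antigen processing, 15 were higher and 0 lower, with a median log2 fold change of 1.13, and at least 11 were called without any 1 of the WT libraries. B2m, the light chain shared by class I molecules, was at 536, 545 and 424 CPM after DSS and 143 and 123 CPM in untreated colon (log2 fold change 1.92 ± 0.25, edgeR adjusted p = 0.00018). H2-D1, a classical class I heavy chain, was at 805, 810 and 702 CPM against 336 and 353 CPM. The non-classical heavy chain gene H2-Q7 was at 109, 116 and 75.8 CPM against 18.6 and 17.4 CPM, though reads of the H2-Q genes can be shared between copies. Of 10 class II genes 3 were higher and 0 lower. Cd74, the invariant chain of class II molecules, was at 349, 334 and 219 CPM after DSS and 67.1 and 110 CPM in untreated colon (log2 fold change 1.77 ± 0.40, edgeR adjusted p = 0.0062). Class II calls numbered 0 without untreated replicate 1 and 1 without replicate 2, and the adjusted p of Cd74 was 0.089 without replicate 1.

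Innate sensors and plasma-type proteins were in part higher. Of 22 cytosolic DNA sensing genes, 7 were higher and 1 lower, with a median log2 fold change of 0.50; 2, 3 and 4 were higher without untreated replicate 1, untreated replicate 2 and DSS replicate 2, and no gene was lower in these fits or without DSS replicate 3. Tmem173, which encodes the adaptor STING, was at 50.4, 43.1 and 22.4 CPM after DSS and 8.47 and 8.81 CPM in untreated colon (log2 fold change 2.16 ± 0.31, edgeR adjusted p = 0.00037). Mb21d1, the sensor cGAS, was at 10.4, 9.96 and 7.02 CPM against 5.40 and 5.25 CPM and did not pass the test (adjusted p = 0.14). Of 18 complement genes 9 were higher and 0 lower, and 3 and 5 were called without untreated replicates 1 and 2. C3, the central component whose cleavage tags microbes, was at 273, 371 and 233 CPM after DSS and 37.0 and 47.0 CPM in untreated colon (log2 fold change 2.80 ± 0.47, edgeR adjusted p = 0.00098). Of 15 tested acute phase genes 8 were higher and 0 lower; Saa3, a serum amyloid A protein made in tissue, was at 82.2, 140 and 96.5 CPM against 3.76 and 3.77 CPM (log2 fold change 4.82 ± 0.44, edgeR adjusted p = 2e-05).

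Feedback genes of NF-kB, the transcription factor downstream of tumour necrosis factor, interleukin-1 and Toll-like receptors, were mostly higher. Of 20 genes 14 were higher and 1 lower, with a median log2 fold change of 0.75, and without untreated replicates 1 and 2 the counts of higher genes were 8 and 9. Tnip3, which restrains the pathway, was at 163, 127 and 114 CPM after DSS and 24.7 and 26.1 CPM in untreated colon (log2 fold change 2.41 ± 0.25, edgeR adjusted p = 4.4e-05). Its relative Tnip1 was the gene called lower, at 73.3, 65.6 and 77.0 CPM against 132 and 129 CPM (log2 fold change -0.86 ± 0.14, edgeR adjusted p = 0.00091). The related inhibitors Tnip3 and Tnip1 thus changed in opposite directions. Their groups did not overlap, as in 62.9% of the genes tested. Zc3h12a, an RNase that destroys cytokine mRNAs, was at 108, 67.9 and 70.7 CPM after DSS and 23.8 and 18 CPM in untreated colon. The inhibitor gene Nfkbia, singled out after its values were seen, was at 117, 88.6 and 89.8 CPM against 46.4 and 47.8 CPM (log2 fold change 1.06 ± 0.20, edgeR adjusted p = 0.0025).

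The NF-kB motif was found in 5.56% of the 12092 promoters, in 10.8% of those of genes called higher by 4-fold or more, in 8 of the 15 matched genes of the NF-kB list and in 6 of 19 chemokine genes. Other lists held it in 8 of 18 class I genes, 2 of 15 smooth muscle genes and 0 of 16 neutrophil genes. The CArG box, a further motif searched, was found in 1.44% of the promoters and in 1 of 15 smooth muscle genes. Cxcl2 and Tnip3 are shown as a ligand and an inhibitor of the pathway, with the motif in capitals. In Cxcl2 (chr5:90903649-90903898, plus strand) 2 overlapping matches begin 97 and 96 bases before the start. In Tnip3 (chr6:65590148-65590397, plus strand) the match begins 54 bases before it.
Cxcl2: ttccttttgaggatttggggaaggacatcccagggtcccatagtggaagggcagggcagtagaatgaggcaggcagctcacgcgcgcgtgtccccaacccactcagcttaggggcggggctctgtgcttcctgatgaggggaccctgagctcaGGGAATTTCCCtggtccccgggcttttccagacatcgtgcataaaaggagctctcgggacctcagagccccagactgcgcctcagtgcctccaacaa
Tnip3: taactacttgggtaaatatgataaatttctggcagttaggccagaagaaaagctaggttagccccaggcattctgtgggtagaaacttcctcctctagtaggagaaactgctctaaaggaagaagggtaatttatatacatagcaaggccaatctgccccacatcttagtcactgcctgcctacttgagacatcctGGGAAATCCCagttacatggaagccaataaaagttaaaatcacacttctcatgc
No test of motif shares was made.

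Genes of prostaglandin and leukotriene handling split by direction, with 5 of 25 higher and 6 lower and a median log2 fold change of -0.15. Pla2g2a, a secreted phospholipase that also kills bacteria, was at 35.9, 54.5 and 47.8 CPM after DSS and 2.39 and 2.29 CPM in untreated colon (log2 fold change 4.30 ± 0.50, edgeR adjusted p = 9.7e-05). Alox5ap, the helper protein of leukotriene synthesis, was at 8.60, 14.5 and 10.6 CPM against 2.46 and 2.22 CPM. Ptgs2, Ptges and Ptges3, enzymes of prostaglandin synthesis, were the other higher ones. Among those lower were genes of synthesis and of removal. Hpgds, a synthase of prostaglandin D2 also known from tuft cells, was at 7.65, 8.43 and 8.08 CPM after DSS and 18.8 and 33.0 CPM in untreated colon (log2 fold change -1.69 ± 0.34, edgeR adjusted p = 0.0034, and 0.063 without untreated replicate 2). Hpgd, the enzyme that inactivates prostaglandins, was at 47.7, 42.7 and 73.4 CPM after DSS and 138 and 124 CPM in untreated colon (log2 fold change -1.26 ± 0.24, edgeR adjusted p = 0.0026). Slco2a1, the transporter that takes prostaglandins up for breakdown, was at 69.9, 57.5 and 67.6 CPM against 160 and 188 CPM (edgeR adjusted p = 0.00049). The counts were 2 higher and 5 lower without untreated replicate 1, and 2 and 3 without replicate 2.

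In the epithelium, secreted defence proteins were changed in both directions. Of 18 tested antimicrobial genes 10 were higher and 3 lower, with a median log2 fold change of 2.57. Retnlb, a goblet cell protein that acts on gram-negative bacteria, held 1685 counts in the DSS libraries (30.7, 25.7 and 54.8 CPM) and 0 in the untreated ones, at least 379-fold higher against a floor of 3 counts over the group. Reg3b, a bactericidal lectin, held 767 counts after DSS (11.5, 27.9 and 14.4 CPM) and 0 in untreated colon, at least 172-fold higher. Slpi, a protease inhibitor of mucosal secretions, was at 85.2, 66.7 and 69.8 CPM against 2.87 and 2.89 CPM (log2 fold change 4.68 ± 0.50, edgeR adjusted p = 5.4e-05). These genes were at 0 or scarce in the untreated libraries. Duox2, the oxidase by which epithelium makes hydrogen peroxide, was at 841, 641 and 470 CPM after DSS and 98.9 and 77.1 CPM in untreated colon, and its maturation factor Duoxa2 was at 128, 93.1 and 59.3 CPM against 6.83 and 5.92 CPM. Wfdc2, a secreted antibacterial protein, was lower, at 44.0, 39.5 and 47.3 CPM after DSS and 135 and 125 CPM in untreated colon (log2 fold change -1.58 ± 0.18, edgeR adjusted p = 6.8e-05). The 3 calls for lower genes were 1 without untreated replicate 1, untreated replicate 2 or DSS replicate 2.

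Goblet cell genes were called in both directions, and 12 did not pass the test. Of 24 tested genes 4 were higher and 8 lower, with a median log2 fold change of -0.57, and they summed to 10700 to 13600 CPM after DSS and 20400 and 21600 CPM in untreated colon. Fcgbp, an abundant protein of the mucus gel, was at 1980, 1570 and 2530 CPM after DSS and 5610 and 5890 CPM in untreated colon (log2 fold change -1.51 ± 0.20, edgeR adjusted p = 0.00024). Clca1, a protease that loosens the mucus, was at 239, 233 and 359 CPM against 1600 and 2030 CPM (log2 fold change -2.71 ± 0.35, edgeR adjusted p = 0.00019). Klk1, a kallikrein protease, was at 43.2, 32.9 and 69.1 CPM against 454 and 460 CPM. The main gel-forming mucin did not pass the test: Muc2 was at 2750, 2810 and 3890 CPM after DSS and 4050 and 4160 CPM in untreated colon (log2 fold change -0.38 ± 0.16, edgeR adjusted p = 0.10). Agr2, an enzyme of the endoplasmic reticulum that folds mucins, was higher at 521, 747 and 731 CPM against 283 and 327 CPM (log2 fold change 1.13 ± 0.21, edgeR adjusted p = 0.0023). Tff3, a trefoil peptide of goblet cells, was at 152, 130 and 195 CPM against 319 and 355 CPM (edgeR adjusted p = 0.0013). Muc2, Agr2 and Tff3 were chosen after their values were seen.

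Transporters of the mature colonocyte were called in both directions, more of them lower. Of 32 genes for salt, water and bicarbonate transport, 14 were lower and 4 higher, with a median log2 fold change of -0.65; without untreated replicate 1 there were 10 lower and 2 higher, and without replicate 2 there were 9 and 2. Slc4a4, the sodium bicarbonate cotransporter, was at 78.2, 84.6 and 75 CPM in the DSS libraries and 576 and 713 CPM in the untreated ones (log2 fold change -3.02 ± 0.45, edgeR adjusted p = 0.00048). Car4, a carbonic anhydrase of the surface membrane, was at 174, 162 and 216 CPM against 686 and 801 CPM (log2 fold change -2.02 ± 0.24, edgeR adjusted p = 9.7e-05). Slc26a3, the chloride bicarbonate exchanger of the colon surface, was at 392, 459 and 664 CPM against 1260 and 1410 CPM (edgeR adjusted p = 0.00093). These 3 genes of bicarbonate handling fell, and their groups did not overlap, as in 62.9% of the genes tested. Aqp4, a water channel, was higher, at 683, 667 and 650 CPM after DSS and 69.3 and 66.1 CPM in untreated colon (log2 fold change 3.30 ± 0.51, edgeR adjusted p = 0.00055). Its 3 DSS values lay closer together than those of the other transporters named here. Scnn1a, the alpha subunit of the epithelial sodium channel, was at 79.0, 56.6 and 95.8 CPM against 172 and 188 CPM (edgeR adjusted p = 0.0016). Aqp8, another water channel, was at 59.3, 29.6 and 72.8 CPM after DSS against 275 and 343 CPM, with an adjusted p of 0.023 that was 0.07 and 0.10 without untreated replicates 1 and 2 and 0.058 and 0.089 without DSS replicates 1 and 2. Slc26a3, Scnn1a and Aqp8 were chosen after their values were seen.

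Of 20 tight junction and adhesion genes, 3 were higher and 4 lower, where 14.1% and 12.5% of all genes tested were. Cldn4, a claudin of the tight junction, was at 55.0, 48.5 and 51.1 CPM after DSS and 19.7 and 22.7 CPM in untreated colon (log2 fold change 1.28 ± 0.15, edgeR adjusted p = 9.6e-05). Ocln, which encodes occludin, was lower at 89.7, 91.2 and 96.4 CPM against 156 and 155 CPM (log2 fold change -0.75 ± 0.15, edgeR adjusted p = 0.0027). Cldn2, a pore-forming claudin, was at 102, 164 and 137 CPM against 80.7 and 103 CPM, with groups that overlapped (adjusted p = 0.33). Counts of 1 to 2 higher and 1 to 2 lower were left without untreated replicate 1, untreated replicate 2 or DSS replicate 2, and DSS replicate 3 left 3 higher and 2 lower.

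Of 28 tested genes of fetal-like, repairing epithelium, 15 were higher, 2 lower and 11 not called, with a median log2 fold change of 0.99, 1 of the lower calls was lost without each of the WT libraries in turn, and their sum was 2910 to 3490 CPM after DSS and 1630 and 1730 CPM in untreated colon. Ly6a, which encodes the surface protein Sca-1, was at 844, 817 and 648 CPM after DSS and 108 and 113 CPM in untreated colon (log2 fold change 2.80 ± 0.29, edgeR adjusted p = 4.8e-05). Ly6c1 was at 183, 190 and 129 CPM against 12.8 and 11.6 CPM, and reads of Ly6 genes can be shared between copies. Ly6a and Ly6c1 are also made by leukocytes and endothelium. Sprr1a, a cornified-envelope protein that appears in repairing gut, was at 17.8, 14.5 and 10.5 CPM against 1.71 and 1.28 CPM (log2 fold change 3.25 ± 0.31, edgeR adjusted p = 2.7e-05). Anxa1, an annexin of wound edges, was at 334, 316 and 297 CPM against 126 and 124 CPM. The genes called lower were S100a6 and Krt17, a keratin, which was at 0.0729, 0.153 and 0.177 CPM against 1.84 and 1.82 CPM (log2 fold change -3.66 ± 0.89, edgeR adjusted p = 0.0093). Growth factors of the same setting were looked at after their values were seen: Ereg, a ligand of the epidermal growth factor receptor, was at 76.7, 67.2 and 43.3 CPM after DSS and 12.1 and 13.9 CPM in untreated colon (log2 fold change 2.26 ± 0.33, edgeR adjusted p = 0.00044). Nrg1, a ligand of the related receptors, was at 56.1, 57.4 and 55.5 CPM against 11.7 and 15.2 CPM (edgeR adjusted p = 0.0015).

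Of 21 tested stem cell and Wnt target genes 3 were higher and 4 lower, near the shares over the genes tested, with a median log2 fold change of -0.37. Lgr5, the marker of crypt base stem cells, was at 9.62, 4.14 and 5.84 CPM after DSS and 13.3 and 9.62 CPM in untreated colon (log2 fold change -0.81 ± 0.44, edgeR adjusted p = 0.19). Tnfrsf19, a receptor of stem cells, was lower at 1.68, 0.919 and 1.42 CPM against 9.97 and 8.34 CPM (log2 fold change -2.76 ± 0.44, edgeR adjusted p = 0.0007). Znrf3, which removes Wnt receptors from the cell surface, was at 21.9, 18 and 21.2 CPM against 39.8 and 35.5 CPM. Cd44, a Wnt target and a receptor of leukocytes too, was higher at 116, 134 and 102 CPM against 46.9 and 67.2 CPM. Of 20 keratin and identity genes 2 were higher and 3 lower, again near the shares over the genes tested. There were 0 higher and 2 lower without untreated replicate 1 or replicate 2. Phgr1, a small protein of the colon epithelium, was at 64.1, 62.4 and 79.1 CPM against 165 and 186 CPM (log2 fold change -1.36 ± 0.20, edgeR adjusted p = 0.00048).

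Among rare epithelial cells, 4 of 19 enteroendocrine genes were higher and 1 lower. Tac1, the precursor of substance P in endocrine cells and nerves, was at 40.2, 26.4 and 23.9 CPM after DSS and 8.13 and 5.45 CPM in untreated colon (log2 fold change 2.15 ± 0.25, edgeR adjusted p = 8.1e-05). The hormone gene Pyy was at 36.4, 36.0 and 38.4 CPM against 38.8 and 44.8 CPM (adjusted p = 0.61). Without untreated replicate 1 or 2 there was 1 enteroendocrine call, without DSS replicate 1 there were 2 higher and 1 lower, and without DSS replicate 2 there were 1 and 1. Of 17 tested tuft cell genes 3 were higher and 6 lower. Among the higher ones was Cd300lf, a receptor also known from leukocytes, at 14.1, 11.4 and 15.7 CPM against 2.60 and 2.56 CPM (log2 fold change 2.41 ± 0.26, edgeR adjusted p = 6.4e-05). Trpm5, the cation channel of tuft cell taste signalling, was at 0.875, 0.689 and 1.12 CPM against 2.25 and 2.49 CPM (adjusted p = 0.011, and 0.05 and 0.073 without untreated replicates 1 and 2). The tuft genes called lower numbered 3, 0, 3 and 3 without untreated replicates 1 and 2 and DSS replicates 1 and 2.

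**Figure D3:**
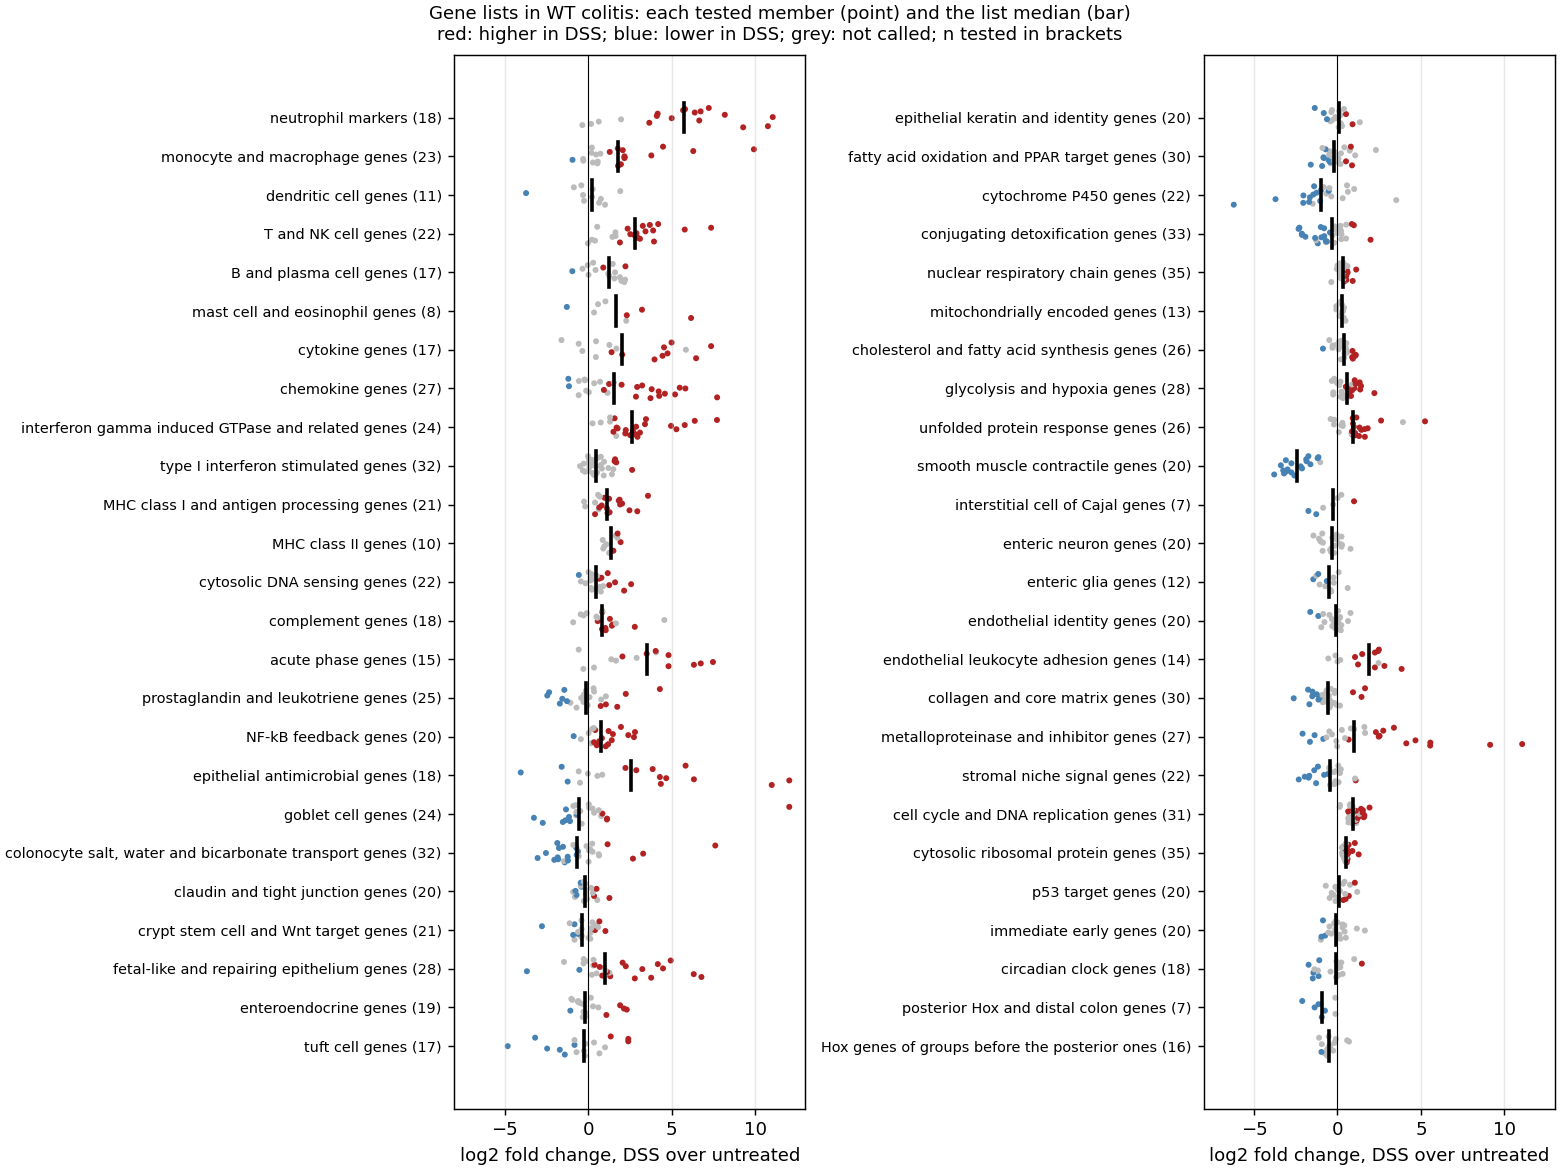
Log2 fold change of DSS over untreated for the tested members of each gene list, with the number tested in brackets; red points were called higher, blue points lower, grey points not called, and the black bar is the list median. Smooth muscle genes have 19 of 20 points in blue around a median of -2.40, neurons have no coloured point, and the antimicrobial, goblet, neutrophil and metalloproteinase lists hold the points furthest to the right, up to 12.05 for Retnlb.

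Many detoxifying enzymes were lower. Of 22 tested cytochrome P450 genes 12 were lower and 0 higher, with a median log2 fold change of -1.01, and between 8 and 11 were lower without any 1 of the WT libraries. Cyp2f2, an enzyme that activates foreign aromatic compounds, was at 2.04, 0.153 and 1.30 CPM in the DSS libraries and 14.3 and 16.6 CPM in the untreated ones (log2 fold change -3.71 ± 0.57, edgeR adjusted p = 0.00057). Cyp2d34 was at 125, 91.5 and 120 CPM against 227 and 237 CPM. Of 33 genes for conjugating enzymes 14 were lower and 3 higher, with 10 lower and 1 higher without untreated replicate 1, 8 and 1 without untreated replicate 2, and 9 and 2 without DSS replicate 2. Sult1a1, a sulfotransferase of phenols, was at 25.3, 18.8 and 38.2 CPM after DSS and 128 and 148 CPM in untreated colon (log2 fold change -2.33 ± 0.30, edgeR adjusted p = 0.00017). Glutathione transferases were found on both sides: Gstt1 was at 5.18, 4.52 and 5.54 CPM against 23.6 and 21.0 CPM (edgeR adjusted p = 5.2e-05), and Gsta1 was at 31.9, 39.8 and 35.8 CPM against 8.40 and 9.69 CPM (log2 fold change 1.98 ± 0.25, edgeR adjusted p = 0.00015).

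Genes of energy metabolism were followed by pathway, with no test between pathways. Of 28 glycolysis and hypoxia genes 13 were higher and 0 lower, with a median log2 fold change of 0.56, and 6 were called without untreated replicate 1 or without replicate 2. Pfkfb3, which makes the activator of phosphofructokinase, was at 92.6, 63.4 and 45.2 CPM after DSS and 14.6 and 14.3 CPM in untreated colon (log2 fold change 2.21 ± 0.32, edgeR adjusted p = 0.00037). Pgk1, a glycolytic kinase, was at 621, 669 and 658 CPM against 268 and 239 CPM. Hif1a, the oxygen-regulated transcription factor, was at 542, 537 and 437 CPM against 211 and 283 CPM (edgeR adjusted p = 0.0017). Gapdh, often taken as a constant gene, was higher too, at 1280, 1450 and 1300 CPM against 716 and 740 CPM (log2 fold change 0.88 ± 0.18, edgeR adjusted p = 0.0035). Of 30 fatty acid oxidation and PPAR target genes 7 were lower and 3 higher, with a median of -0.18. Ppargc1a, a co-activator of mitochondrial genes, was at 38.7, 23.4 and 53.5 CPM after DSS and 132 and 102 CPM in untreated colon (log2 fold change -1.60 ± 0.34, edgeR adjusted p = 0.0044). In the fatty acid list 5 genes were lower and 1 higher without untreated replicate 1, and 2 and 2 without replicate 2. Nuclear respiratory chain genes had 8 of 35 higher and 0 lower, with 1 and 0 calls without untreated replicates 1 and 2 and 2 and 5 without DSS replicates 2 and 3. Of the 13 genes encoded by mitochondrial DNA none was called, with log2 fold changes of -0.07 to 0.48.

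Genes of the unfolded protein response, by which the endoplasmic reticulum adapts to secretory load, were higher for 17 of 26, with 0 lower and a median log2 fold change of 0.95. Asns, the asparagine synthetase that amino acid shortage and this response induce, was at 81.1, 103 and 64.8 CPM after DSS and 14.3 and 12.8 CPM in untreated colon (log2 fold change 2.61 ± 0.31, edgeR adjusted p = 0.00011). Manf, a secreted protein of the stressed endoplasmic reticulum, was at 124, 137 and 86.1 CPM against 38.9 and 35.8 CPM. Calr, the chaperone calreticulin, was at 783, 866 and 638 CPM against 371 and 354 CPM (edgeR adjusted p = 0.002). DSS replicate 3 was the lowest of the DSS libraries in these 3 genes. Without untreated replicate 1 or replicate 2 there were 7 calls. The cytosolic heat shock genes varied between the DSS libraries: Hspa1b was at 58.2, 201 and 10.4 CPM after DSS and 41.9 and 25.4 CPM in untreated colon (adjusted p = 0.22), and was chosen after its values were seen.

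Nearly all smooth muscle genes were called lower. Of 20 smooth muscle contractile genes 19 were lower and 0 higher, with a median log2 fold change of -2.40, and their sum was 1280 to 1850 CPM after DSS and 8830 and 10100 CPM in untreated colon. Synpo2, an actin-bundling protein of muscle, was at 59.5, 41.4 and 49.5 CPM in the DSS libraries and 440 and 414 CPM in the untreated ones (log2 fold change -3.09 ± 0.44, edgeR adjusted p = 0.00033). Smtn, which encodes smoothelin of contractile smooth muscle, was at 38, 34.1 and 41.0 CPM against 202 and 148 CPM (log2 fold change -2.21 ± 0.30, edgeR adjusted p = 0.00026). Tpm1, a tropomyosin made by many cells, was at 269, 241 and 269 CPM against 811 and 786 CPM. Neurons, glia and pacemaker cells of the wall were followed by lists of their own, and the difference of these lists from the muscle list was not tested. Of 20 enteric neuron genes none was called, with a median of -0.33 and sums of 84.2, 117 and 97.3 CPM after DSS and 147 and 83.9 CPM in untreated colon. Of 12 glia genes 3 were lower, with a median of -0.53, and 0 to 2 were lower without any 1 of the WT libraries. Among 7 genes of the interstitial cells of Cajal, the pacemakers of the gut, 2 were lower and 1 higher, with a median of -0.26, and with 1 and 0 without untreated replicate 1 and 2 and 0 without replicate 2; Ano1, their chloride channel, was at 144, 81.6 and 124 CPM after DSS and 422 and 358 CPM in untreated colon (log2 fold change -1.74 ± 0.36, edgeR adjusted p = 0.0035). Ano1 is also made by smooth muscle and epithelium. Whether the pieces of colon differed in their share of muscle was not tested.

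Of 20 endothelial identity genes 0 were higher and 2 lower, with a median log2 fold change of -0.08, and none was lower without either untreated library or without DSS replicate 1 or 2; Pecam1 was at 29.0, 27.3 and 25.1 CPM after DSS and 22.5 and 24.6 CPM in untreated colon (adjusted p = 0.65). Of 14 genes by which leukocytes attach to vessels, on the vessel or on the leukocyte side, 9 were higher and 0 lower, with a median of 1.86, and 4 were called without untreated replicate 1. Icam1, a ligand of leukocyte integrins, was at 36.4, 29.7 and 15.6 CPM after DSS and 2.80 and 4.91 CPM in untreated colon (log2 fold change 2.81 ± 0.37, edgeR adjusted p = 0.00021). Vcam1, another such ligand, was at 32.5, 36.2 and 31.2 CPM against 13.3 and 15.1 CPM. Itgb2, the integrin chain on the leukocyte side, was at 29.7, 29.1 and 22.6 CPM against 4.44 and 5.65 CPM, beside the higher Ptprc level given above.

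In the matrix, most structural genes did not pass the test. Of 30 collagen and core matrix genes 8 were lower and 3 higher, with a median log2 fold change of -0.58; without untreated replicates 1 and 2 there were 5 and 4 lower and none higher, and without DSS replicates 1, 2 and 3 there were 6, 6 and 5 lower and 0, 1 and 2 higher. Postn, a matrix protein that binds collagen and integrins, was at 123, 124 and 130 CPM after DSS and 449 and 399 CPM in untreated colon (log2 fold change -1.76 ± 0.17, edgeR adjusted p = 3.6e-05). Col14a1, a collagen that links fibrils, was at 9.62, 12.3 and 5.6 CPM against 64.4 and 48.2 CPM (log2 fold change -2.62 ± 0.28, edgeR adjusted p = 5.8e-05). The main fibrillar collagens did not pass the test: Col1a1 was at 162, 282 and 140 CPM after DSS and 310 and 232 CPM in untreated colon (adjusted p = 0.48), and Col3a1 at 558, 928 and 550 CPM against 845 and 997 CPM (adjusted p = 0.33).

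Of 27 metalloproteinases, inhibitors and their kin, 12 were higher and 4 lower, and 10 were higher without any 1 of the WT libraries. Mmp8, a neutrophil collagenase, held 818 counts after DSS and 0 in untreated colon, at least 184-fold higher against 3 counts over the group. Mmp7, the epithelial matrilysin, held 215 counts and 0, at least 48.3-fold higher. Plaur, the receptor that focuses urokinase on the cell surface, was at 33.2, 25.6 and 26.2 CPM after DSS and 1.84 and 3.57 CPM in untreated colon (log2 fold change 3.38 ± 0.25, edgeR adjusted p = 5.2e-06). The stromal enzymes varied more between the DSS libraries: Mmp3 was at 68.7, 58.0 and 8.02 CPM against 0.547 and 1.35 CPM, and Mmp10 at 40.9, 47.2 and 9.02 CPM against 0.342 and 1.01 CPM (edgeR adjusted p = 0.001). DSS replicate 3 was the lowest in both, and the groups did not overlap, as in 62.9% of the genes tested. Timp4, an inhibitor of these enzymes, was lower at 2.99, 1.61 and 3.66 CPM against 9.29 and 14.3 CPM. The 4 lower calls were 1 without untreated replicate 1.

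Most genes for signals by which stroma instructs the crypt did not pass the test. Of 22 tested niche genes 9 were lower and 1 higher, with a median log2 fold change of -0.46, and 4 were lower without untreated replicate 1. Bmp2, a differentiation signal of the upper crypt, was at 40.2, 27.3 and 41.3 CPM after DSS and 121 and 162 CPM in untreated colon (log2 fold change -1.96 ± 0.32, edgeR adjusted p = 0.00087). Grem1, an antagonist of such signals, was the 1 niche gene called higher, at 199, 171 and 102 CPM after DSS and 63.0 and 85.0 CPM in untreated colon; the adjusted p was 0.012, and 0.14 without untreated replicate 1. Rspo3, the Wnt amplifier of crypt stroma, was at 7, 6.13 and 3.83 CPM against 6.42 and 6.32 CPM (adjusted p = 0.79).

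Cell cycle and ribosomal protein genes were called higher for 14 of 31 and 19 of 35. Each of the 31 cell cycle and replication genes had a fold change above 0, with a median log2 fold change of 0.95. Rrm2, a subunit of the enzyme that makes DNA precursors, was at 67.1, 80.3 and 57.6 CPM after DSS and 18.7 and 17.4 CPM in untreated colon (log2 fold change 1.92 ± 0.39, edgeR adjusted p = 0.0035). Mki67, the proliferation marker, was at 656, 804 and 698 CPM against 276 and 489 CPM and did not pass the test (log2 fold change 0.91 ± 0.45, edgeR adjusted p = 0.15). The calls depended on single libraries, with 1 and 6 left without untreated replicates 1 and 2 and 2 without DSS replicate 2. Each of the 35 cytosolic ribosomal protein genes also had a fold change above 0, with a median of 0.50. Rpsa, a protein of the small subunit, was at 785, 961 and 878 CPM after DSS and 442 and 407 CPM in untreated colon (log2 fold change 1.04 ± 0.15, edgeR adjusted p = 0.00044). There were 5 and 2 ribosomal calls without untreated replicates 1 and 2, and 6 and 11 without DSS replicates 2 and 3. Of 20 p53 target genes 4 were higher, with 0 left without untreated replicate 1 or replicate 2 and 1 without DSS replicate 2; Cdkn1a, the cell cycle inhibitor, was at 157, 104 and 130 CPM against 141 and 142 CPM (adjusted p = 0.73).

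Some genes of position and of daily rhythm were lower. Of 7 tested posterior Hox and distal colon genes 5 were lower and 0 higher, with a median log2 fold change of -0.94, and 3 were lower without untreated replicate 1 or without DSS replicate 2. Hoxb13, which marks the distal colon, was at 133, 116 and 157 CPM after DSS and 229 and 226 CPM in untreated colon (log2 fold change -0.75 ± 0.14, edgeR adjusted p = 0.0022). Hoxd12 was at 4.67, 1.99 and 3.13 CPM against 13.3 and 15 CPM (log2 fold change -2.11 ± 0.42, edgeR adjusted p = 0.0028). Of 16 Hox genes of the more anterior groups 1 was lower, and none without untreated replicate 1 or without DSS replicate 1 or 2. The stretch of colon sampled is not in the labels, and its part in these results was not tested. Of 18 clock genes 5 were lower and 1 higher; Npas2, an activator of the clock, was at 51.8, 40.8 and 32.3 CPM after DSS and 99.2 and 83.0 CPM in untreated colon (log2 fold change -1.13 ± 0.24, edgeR adjusted p = 0.004). The clock calls were 1 lower and none higher without untreated replicate 1, 3 lower without untreated replicate 2, and 2 lower without DSS replicate 1 or 2. The hour at which tissue was taken is not in the labels.

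The 3 DSS libraries differed among themselves in strength and in kind. Among the 2466 genes called higher, DSS replicate 2 was the highest of the 3 for 1431 and replicate 3 the lowest for 1446. Over the 17477 genes tested these counts were 6209 and 6363. The genes called higher had a median log2 distance from the untreated mean of 0.87, 0.96 and 0.76 in replicates 1, 2 and 3. Genes of 1 library can move together, so these counts are not independent. The order was not the same for each gene group: replicate 1 was highest for the interferon gamma list, replicate 2 for the cell cycle list (2720, 3260 and 2690 CPM, against 1270 and 1640 CPM in untreated colon), and replicate 3 had the least change in the goblet list. Adipocyte genes stood out in DSS replicate 1. Their sum was 332, 50.3 and 51.1 CPM after DSS and 67.6 and 49.5 CPM in untreated colon, and Adipoq, the adipocyte hormone adiponectin, held 310, 14 and 14 counts against 2 and 1. Genes that fat also makes were high in the same library, such as Cfd at 105, 3.45 and 3.30 CPM against 2.53 and 0.605 CPM (adjusted p = 0.097) and Cyp2e1 at 68.7, 4.44 and 3.01 CPM against 2.46 and 1.95 CPM (adjusted p = 0.1). Their part in the wider result was not tested, and without DSS replicate 1 the test called 3358 genes. Of 8 tested genes on the exocrine pancreas list 4 were lower, namely Sycn, Cela1, Zg16 and Clps. Zg16 was at 318, 250 and 431 CPM after DSS and 731 and 967 CPM in untreated colon. A place on the list does not show that the RNA came from pancreas. Clps, which encodes the pancreatic colipase, held 4, 2 and 6 counts after DSS and 106 and 94 in untreated colon (log2 fold change -4.60 ± 0.49, edgeR adjusted p = 5.4e-05). Of the 7 listed genes too low to be tested, Try4, Cpa1 and Ctrb1 held at most 1 count in each WT library. Whether pancreatic RNA had a part in these values was not tested. Of 7 tested skeletal muscle genes 3 were lower and 1 higher, and none was higher without untreated replicate 1; Myh2, a myosin of fast skeletal fibres, held 0 counts after DSS and 24 and 79 in untreated colon.

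**Figure D4:**
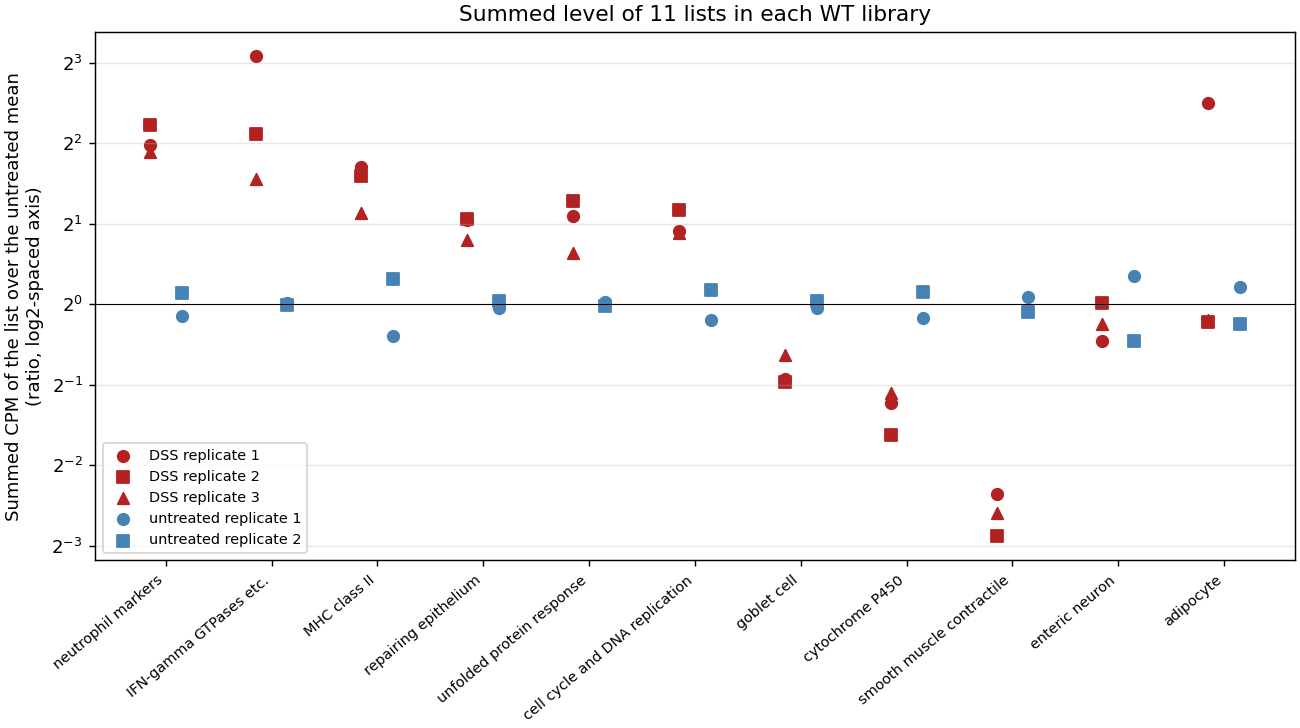
Summed CPM of 11 gene lists in each WT library divided by the mean of the untreated libraries (log2-spaced axis); red symbols are DSS replicates 1 (circle), 2 (square) and 3 (triangle), blue symbols untreated replicates 1 and 2. The interferon gamma list spreads from 1050 to 3010 CPM between DSS libraries, smooth muscle lies at 1280 to 1850 CPM, and the adipocyte list is high in DSS replicate 1 only.

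Whether the response differed by Tert genotype was tested as an interaction. Between WT and VAA colon 0 of 17477 genes (0.0%) had a different DSS effect at an adjusted p under 0.05, with 1259 genes at an unadjusted p under 0.05 and a smallest edgeR adjusted p of 0.64. Between WT and KO colon it was also 0 (0.0%), with 1735 genes at an unadjusted p under 0.05 and a smallest adjusted p of 0.13. Other tools made calls for the KO difference, with 138 genes by DESeq2 and 9 by limma, and none for the VAA difference. For Gbp5 the WT effect minus the VAA effect was -0.05 (log2) and the WT effect minus the KO effect 1.16, with adjusted p-values of 0.98 and 0.43. Clca4b differed by 0.14 and -0.01 (adjusted p = 0.89 and 1.00). For Tnip3 the differences were 0.38 and 0.84 (adjusted p = 0.68 and 0.41). Larger differences were not called either, in both directions. For Retnlg, with 2 counts in untreated WT colon, they were -3.24 and 5.70 (edgeR adjusted p = 0.64 and 0.26). For Mptx1 they were 0.08 and -3.00 (edgeR adjusted p = 0.98 and 0.32). Retnlg and Mptx1 were chosen here after their values were seen. The lack of calls therefore does not show that the WT and KO responses were alike. Tert itself was at 1.90, 2.76 and 1.36 CPM in the DSS libraries and 2.53 and 2.69 CPM in the untreated ones, a log2 fold change of -0.39 ± 0.47 (edgeR adjusted p = 0.57).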

How the data were processed

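Estimated counts were deposited by the authors for each gene symbol; kallisto 0.46 and the mm10 build are those of the submitters' processing notes. Which transcript annotation was used is not given here. These counts were whole numbers as deposited, so rounding changed 0 of them. The deposited log2 CPM values entered 1 alternative, and recomputing them from the counts with a prior count of 2 gave values within 0.018.

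Samples were grouped by their labels. The expression filter of edgeR chose the genes, libraries were scaled by edgeR's trimmed mean (TMM), and counts were tested with edgeR 4.0.16 in R 4.3.3 by quasi-likelihood over 15 libraries and 6 group means, with 9 residual degrees of freedom. CPM is the count divided by the library total in M (mega) and by its scaling factor. Where a group held 1 to 3 counts, a ratio with an exact 95% interval is given, and against a group at 0 a bound from a floor of 3 counts. Such intervals and floors cover counting error only. The chi-square per degree of freedom between WT replicates was 11.17 to 20.85, so they were not duplicates and their spread exceeded counting error. On simulated WT data edgeR recovered 3, 18, 41 and 46 of 50 genes changed 1.5-, 2-, 4- and 8-fold, and called 2 of 17277 unchanged genes. Among genes above a minimum count, 15 gene symbols had the same value as another symbol in every library. The 3 largest of them took 4.22% to 7.83% of the WT counts, so equal values entered the library totals under more than 1 symbol.

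The samples, the comparison and the 55 gene lists were chosen with earlier results of these data known. Genes were named by a rule: the 12 highest and 12 lowest called genes whose mean log2 CPM was 2 or more and whose groups did not overlap, and up to 5 called members of each list by smallest p, with at least 2 in each direction. This ranking skipped predicted gene models and the genes of antigen receptors. Other genes, among them most markers that did not pass the test, were chosen after their values were seen. Alternatives were DESeq2 1.42.0 and its size factors, limma 3.58.1 on the deposited log2 values, no expression filter, a fit of the compared groups alone, sex as a covariate, no male libraries, a block for the replicate number, and each library left out. The labels do not tie equal replicate numbers to a shared animal, litter or day. Over 33 such pairs of libraries the residuals correlated at -0.16 to 0.31, with 8 over 0.1, so samples were not treated as paired. Promoter letters came from RefSeq on GRCm38.p6. Raw reads were not analysed here, and a few genes that met the naming rule are not reported here.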

Additional observations from a re-analysis of the deposited data

How the results depend on the processing

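The 4642 calls (2466 higher and 2176 lower) became 1999 (979 and 1020) without both male libraries. Over the fits that each leave out 1 of the 15 libraries the total ran from 1958 to 6505, the higher genes from 845 to 3522 and the lower genes from 1104 to 2983. The smallest totals came without untreated WT replicate 1 (1958, of which 1922 were among the 4642), untreated WT replicate 2 (2176, of which 2122) and WT DSS replicate 2 (2842, of which 2826), and the largest without VAA DSS replicate 3. Each of these fits also holds fewer samples than the main fit, and the cause of the changed totals was not tested. Totals were 4602 with DESeq2 size factors, 4286 with no expression filter, 5097 by DESeq2, 4507 by limma, 6586 with only the compared groups, 3758 with sex as a covariate and 5279 with the replicate number as a block. The numbers do not pair the samples by the labels, and 7 of 15 libraries had their nearest residuals in a library of equal number. For the difference between the WT and KO effects, 0 genes were called by edgeR, 5 with no expression filter, 138 by DESeq2, 9 by limma, 31 with only the compared groups, and 0 to 18 over the fits that leave out a library; for the WT and VAA difference it was 0 in each of these. Of the 313 genes followed, 86 lost their call without untreated WT replicate 1, 81 without replicate 2, 87 without both male libraries and 29 with sex as a covariate, and none changed sign under these alternatives past the threshold. In the simulated data, where 17277 of 17477 genes were unchanged, 3 of 50 genes changed 1.5-fold and 18 of 50 changed 2-fold were recovered. With so few changed genes the adjusted p is stricter than in the real fit, so these shares do not carry over to it. In the real fit 1071 of the 2466 genes called higher and 1204 of the 2176 called lower changed by 2-fold or more.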
